A study of Mus musculus with 4 samples.

Results

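The genes described here carry out antigen presentation by major histocompatibility complex (MHC) class I molecules and the making of the peptides they present. They were picked by symbol as H2-K1, H2-D1, B2m, Tap1, Tap2, Tapbp, Psmb8, Psmb9, Psmb10 and Nlrc5, and all 10 were among the 18781 genes of the table and passed the filter on low values. RNA was sequenced from mature adipocytes of the dorsal skin (dermal, dWAT) and of the inguinal fat pad (sWAT) of C57BL/6 mice, an inbred laboratory strain, at postnatal day 30, with 2 libraries per depot. No genotype other than the strain and no treatment is named for either group, and the labels say neither the sex nor whether animals were pooled. The cells were freed with Collagenase IV and DispaseII and collected because they float in a centrifuge, so other cells can come along. Each library held between 10127125 and 12730013 reads in genes. Markers of mature adipocytes, which include Adipoq and Plin1, were abundant in every library: the 10 on the list summed to 39506 and 35977 CPM in the dermal and to 41745 and 37944 CPM in the inguinal libraries. By the limma test described below, 2 of these 10, Plin1 among them, were higher in dermal libraries and 0 lower (20%, beside 16.4% of all genes tested). DESeq2 called 5 of the 10. CPM here means counts per unit of library size, as the depositors scaled them.

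Class I molecules sit on the surface of nearly all nucleated cells and show peptides from proteins made inside the cell to CD8 T cells. Proteasomes cut the proteins, the TAP transporter carries the peptides into the endoplasmic reticulum, and tapasin helps load them onto a heavy chain paired with beta-2 microglobulin. Interferon gamma, in part through the transcription factor IRF1, is known to raise this pathway and to exchange catalytic proteasome subunits for inducible ones, and NLRC5 acts as a coactivator at class I promoters. Adipocytes express the pathway too.

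Promoters are shown for the 3 class I chains, for Tap1, whose window is mostly shared with Psmb9, and for Psmb8, the gene that passed the test described after them. RefSeq windows on GRCm38.p6, each of 300 bases from 250 before to 50 after the gene start, were found for 8 of the 10 genes. Tap2 and Nlrc5 had none in the table, and the first of 2 windows is printed for H2-K1. Capitals mark letters that match, on either strand, an interferon-stimulated response element (GAAA, 2 bases of any kind, GAAA), a gamma-activated site (TTCNNNGAA), a kappaB site (the first run of capitals in the H2-K1 window), a Y box (ATTGG, an inverted CCAAT) or the core of an X2 box (TGACG).
H2-K1, chr17:34000298-34000597, minus strand: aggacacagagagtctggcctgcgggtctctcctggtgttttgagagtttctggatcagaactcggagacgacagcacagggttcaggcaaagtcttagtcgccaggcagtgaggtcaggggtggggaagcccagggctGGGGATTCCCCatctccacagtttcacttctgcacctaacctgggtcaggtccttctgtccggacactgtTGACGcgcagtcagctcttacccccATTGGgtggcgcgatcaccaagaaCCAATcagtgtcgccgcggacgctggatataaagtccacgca
H2-D1, chr17:35262844-35263143, plus strand: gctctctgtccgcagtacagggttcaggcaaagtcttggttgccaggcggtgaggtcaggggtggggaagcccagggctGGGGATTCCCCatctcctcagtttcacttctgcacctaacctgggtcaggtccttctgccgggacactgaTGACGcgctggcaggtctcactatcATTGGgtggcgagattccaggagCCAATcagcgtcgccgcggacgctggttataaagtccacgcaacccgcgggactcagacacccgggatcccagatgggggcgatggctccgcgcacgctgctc
B2m, chr2:122147437-122147736, plus strand: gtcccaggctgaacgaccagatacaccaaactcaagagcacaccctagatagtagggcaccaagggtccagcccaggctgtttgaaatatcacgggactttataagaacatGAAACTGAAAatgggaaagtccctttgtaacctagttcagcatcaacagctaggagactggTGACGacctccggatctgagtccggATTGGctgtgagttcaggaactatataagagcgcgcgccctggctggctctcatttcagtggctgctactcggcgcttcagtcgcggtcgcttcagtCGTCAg
Tap1, chr17:34187306-34187605, plus strand: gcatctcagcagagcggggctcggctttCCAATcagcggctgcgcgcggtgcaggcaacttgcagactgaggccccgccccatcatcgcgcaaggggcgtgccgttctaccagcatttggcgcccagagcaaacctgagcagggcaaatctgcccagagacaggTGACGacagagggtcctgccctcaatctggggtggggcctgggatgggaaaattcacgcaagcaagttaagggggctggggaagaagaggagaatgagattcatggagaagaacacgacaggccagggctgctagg
Psmb8, chr17:34197945-34198244, plus strand: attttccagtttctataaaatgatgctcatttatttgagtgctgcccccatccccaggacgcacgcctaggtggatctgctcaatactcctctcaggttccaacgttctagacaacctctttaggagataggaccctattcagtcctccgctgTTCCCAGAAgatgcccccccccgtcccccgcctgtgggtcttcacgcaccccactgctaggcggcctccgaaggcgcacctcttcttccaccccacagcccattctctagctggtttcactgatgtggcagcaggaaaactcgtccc

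The windows of H2-K1, H2-D1 and B2m share an arrangement. In each, the TGACG letters are followed on the same strand by ATTGG, with the first bases 25 apart. That pair at that spacing was found in 31 of 32851 windows of the table (0.0944%), a spacing looked for after these windows were seen. H2-K1 and H2-D1 also hold the 11 letters of the kappaB site, 111 and 171 bases before their starts, which 0.0304% of windows hold. Those are 10 windows of 9 genes, with H2-K1, H2-D1 and their relative H2-Q6 among them. The low share is therefore no independent evidence. Of the 8 genes, only B2m matched the interferon-stimulated response element, 139 bases before its start (3.44% of windows), and only Psmb8 matched the gamma-activated site, 97 bases before its start (8.3% of windows). ATTGG alone occurs in 37.4% and TGACG in 20.8% of windows. No 2 of these motifs overlapped in the 5 windows printed. Tap1 and Psmb9 are read in opposite directions from starts 226 bases apart, and their windows overlap by 275 bases, so the Tap1 window above holds most of that of Psmb9. The windows of Psmb8, H2-D1 and Tapbp lie inside the bounds of these genes in GENCODE M21, the gene models used below. Those models begin further upstream, at 34197721, 35262730 and 33915899, so distances are from the RefSeq start only. These are letter matches and no measure of binding. Only the exact letters given were searched, so a window without a match may still hold a variant of an element.

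**Figure D1:**
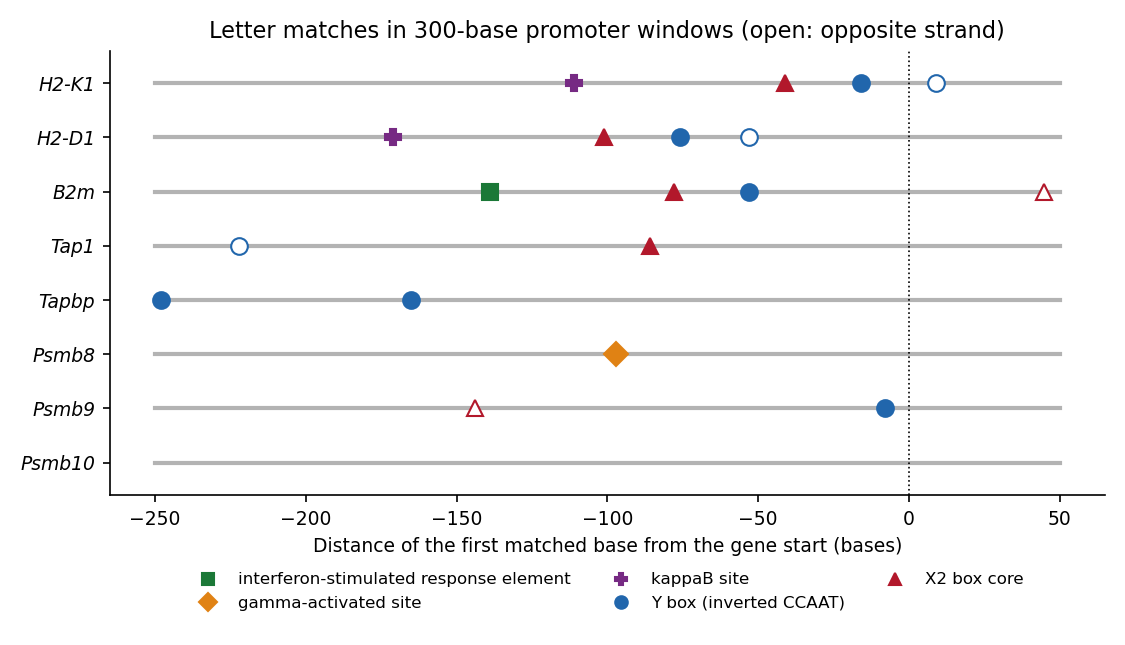
Letter matches in the windows of the 8 genes with a RefSeq promoter (rows), by distance of the first matched base from the gene start in bases, with filled symbols for the strand of the gene and open symbols for the opposite strand. H2-K1, H2-D1 and B2m show the X2 box core followed by a Y box 25 bases on, and the Psmb10 window holds no match.

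The comparison of dermal with inguinal adipocytes gave small differences in this pathway. Of the 10 genes, 1 passed the test: Psmb8, an inducible catalytic subunit, was 1.57-fold lower in dermal libraries. No gene passed as higher. Across all 12797 genes tested 16.4% were called, 7.56% as higher and 8.8% as lower in dermal libraries. With only 10 members, 1 call (10%) cannot be told apart from that background. By edgeR and by DESeq2 on the recovered reads 1 member passed as well, beside 16.1% and 15.5% of all genes. At an unadjusted p below 0.05 in limma 1 member was higher and 3 were lower. The test was limma on log2(CPM + 0.5), two-sided, with Benjamini-Hochberg adjustment over all genes tested and a threshold of 0.05, and log2 fold changes below are dermal over inguinal on that scale. The median over the 10 genes was -0.09, beside 0.02 over all genes tested. Both dermal libraries lay above both inguinal ones for H2-K1, H2-D1 and Tapbp (31.6% of tested genes do so), and below them for Tap1, Tap2, Psmb8 and Psmb9 (30.1%). The other 3 genes overlapped between depots. In bulk libraries such as these, fewer cells of a type and less RNA per cell cannot be told apart.

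**Figure D2:**
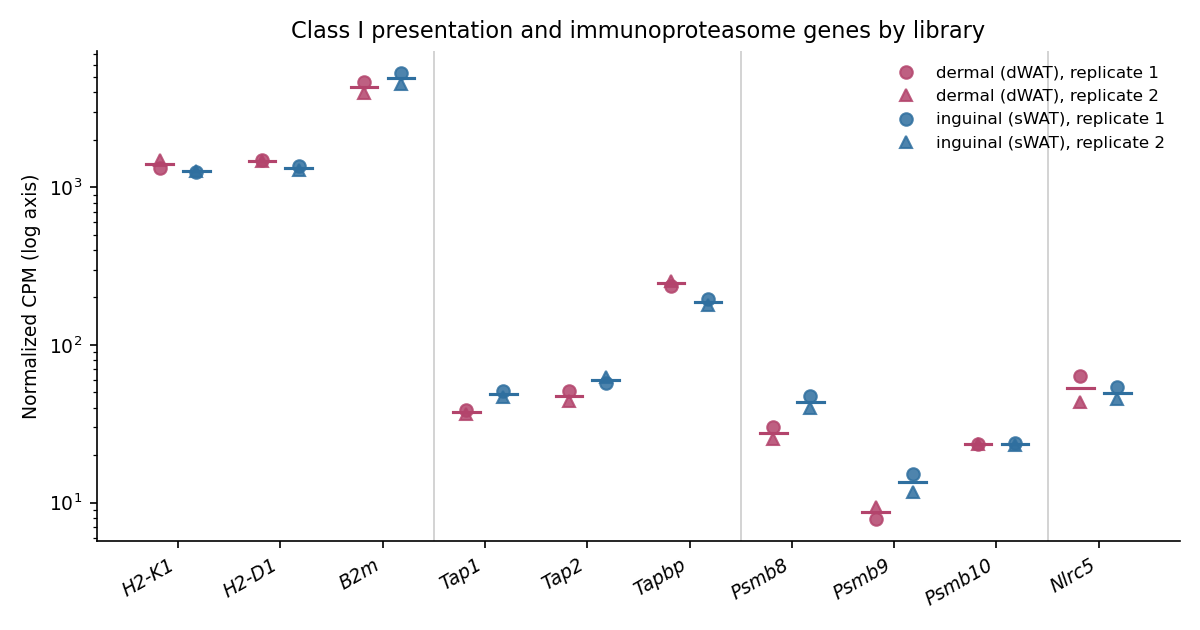
Normalized CPM (log axis) of the 10 genes in each library, with dermal libraries in red to the left of inguinal libraries in blue; circles are replicate 1, triangles replicate 2 and horizontal bars the depot means (n = 2). B2m lies highest, between 3980 and 5313 CPM, and Psmb9 lowest, between 7.92 and 15.1 CPM.

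The class I chains were the most abundant members in both depots, and none of the 3 passed by limma (0 also at an unadjusted p below 0.05), edgeR or DESeq2. H2-K1, which encodes the K heavy chain, had 1329 and 1485 CPM in dermal libraries, against 1256 and 1265 CPM in inguinal libraries. H2-D1, which encodes the D heavy chain, had 1486 and 1465 CPM in dermal libraries, against 1368 and 1281 CPM in inguinal libraries. Both genes lay higher in each dermal library than in either inguinal one, by a log2 fold change of 0.16 each, which did not pass (SE 0.16 and adjusted p = 0.536 for H2-K1, SE 0.15 and adjusted p = 0.528 for H2-D1). The limma 95% intervals ran from -0.22 to 0.53 for H2-K1 and from -0.21 to 0.53 for H2-D1. B2m, the light chain shared by all class I molecules, had 4666 and 3980 CPM in dermal libraries, against 5313 and 4502 CPM in inguinal libraries. Its groups overlapped (log2 fold change -0.18, SE 0.22, 95% interval -0.72 to 0.35, adjusted p = 0.620). H2-K1 and H2-D1 lie on chromosome 17, at 33996017 to 34000347 and 35262730 to 35267499 (GRCm38, GENCODE M21), and B2m lies on chromosome 2, at 122147686 to 122153083. In transcripts of GENCODE M21, 8.79% of 50-base stretches of H2-K1 and 14.3% of those of H2-D1 also occur in transcripts of other genes, class I relatives among them, while no stretch of B2m does, so the values of both heavy chains are uncertain by reads that could belong to other genes.

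The peptide-loading genes lay on both sides of no change, and none of the 3 passed by limma, edgeR or DESeq2. Tap1, a subunit of the peptide transporter, had 38.5 and 36.7 CPM in dermal libraries, against 50.7 and 46.5 CPM in inguinal libraries. Tap2, its partner subunit, had 51.0 and 43.9 CPM in dermal libraries, against 57.2 and 62.5 CPM in inguinal libraries. Both were lower in each dermal library than in either inguinal one, and neither passed (log2 fold change -0.36, SE 0.13, adjusted p = 0.117 for Tap1, and -0.33, SE 0.14, adjusted p = 0.162 for Tap2). Tapbp, which encodes the loading chaperone tapasin, lay on the other side, with 238 and 254 CPM in dermal libraries, against 197 and 179.6 CPM in inguinal libraries. Its groups did not overlap either, and its log2 fold change of 0.39 (SE 0.13, 95% interval 0.08 to 0.69, unadjusted) did not pass after adjustment (adjusted p = 0.0871), though it passed after quantile normalization (limma adjusted p = 0.0283). Tap1 (34187553 to 34197225), Tap2 (34203527 to 34216321) and Tapbp (33915899 to 33929292) are on chromosome 17. Exons of Tap1 overlap those of Psmb9 on the opposite strand and Tap2 and Tapbp overlap antisense transcripts, and Tapbp also overlaps exons of Zbtb22 on its own strand. Of 50-base stretches, 21% of those of Tapbp, 12.6% of those of Tap2 and 6.47% of those of Tap1 occur in transcripts of other genes. The libraries came from a stranded kit, but how the counting used strand is not stated, so reads of such pairs may be mixed.

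Of the inducible proteasome subunits, 1 of 3 passed, beside 16.4% of all genes tested, and 3 genes are too few to compare with that share. Psmb8, also called LMP7, had 30.2 and 25.1 CPM in dermal libraries, against 47.7 and 39.7 CPM in inguinal libraries, from 332 and 265 dermal reads against 565 and 410 inguinal reads. Its groups did not overlap and it passed at a log2 fold change of -0.65 (SE 0.17, 95% interval -1.06 to -0.25, limma adjusted p = 0.0467). Psmb9, also called LMP2, had 7.92 and 9.39 CPM in dermal libraries, against 15.1 and 11.7 CPM in inguinal libraries, from 87 and 99 dermal reads against 179 and 121 inguinal reads. It had nearly the same estimate as Psmb8 with a wider error and did not pass (log2 fold change -0.60, SE 0.21, adjusted p = 0.107). Psmb10, also called MECL-1, had 23.4 and 23.4 CPM in dermal libraries, against 23.9 and 23.1 CPM in inguinal libraries. These groups overlap (95% interval of the log2 fold change -0.35 to 0.35, adjusted p = 0.988). Psmb8 (34197721 to 34201454) and Psmb9 (34181987 to 34187764) lie beside Tap1 and Tap2 on chromosome 17, and Psmb10 lies on chromosome 8, at 105935735 to 105938444. Exons of Psmb8 overlap an antisense transcript, Gm20496, and 12.5% of the 50-base stretches of Psmb9 and 5.83% of those of Psmb8 occur in transcripts of other genes. The Psmb8 call sits close to the threshold: it did not hold without dermal replicate 1 (adjusted p = 0.10), dermal replicate 2 (0.276) or inguinal replicate 1 (0.0854), and it held without inguinal replicate 2 (0.0165), with the estimate between -0.78 and -0.52 throughout. It also ended without the filter (0.0656), without the intensity trend (0.0811), after quantile normalization (0.0571) and without the scaling factor (0.0612), while edgeR (adjusted p = 0.0445) and DESeq2 (0.0398) on the reads also called it.

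**Figure D3:**
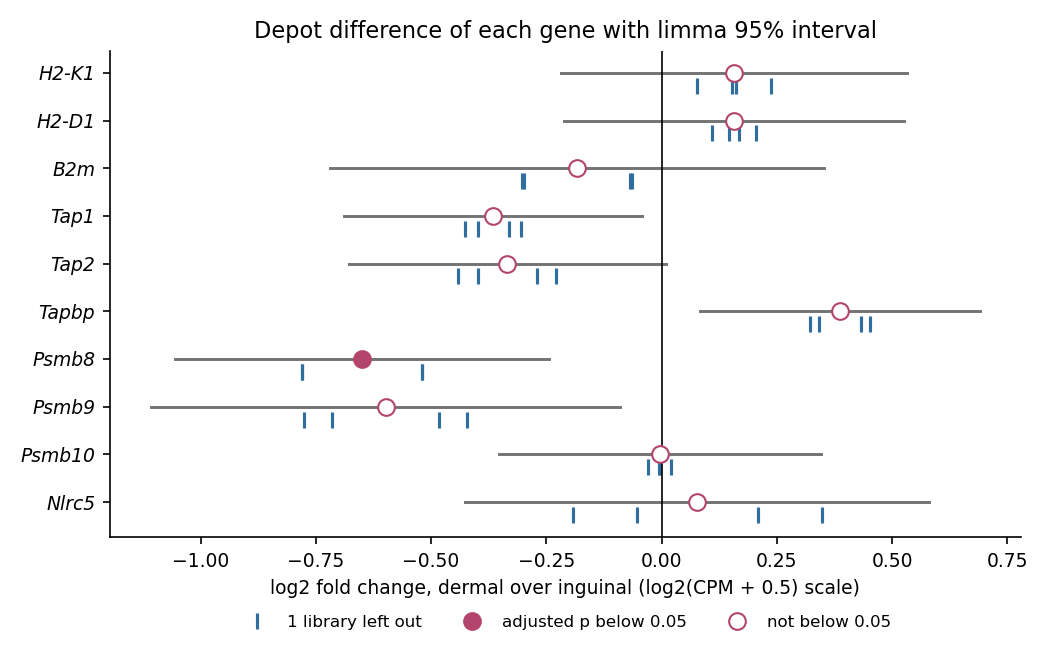
Log2 fold change (dermal over inguinal, log2(CPM + 0.5) scale) of each gene with its limma 95% interval (grey line), filled where the adjusted p was below 0.05, and the estimate with each of the 4 libraries left out (blue ticks). Psmb8 alone is filled, at -0.65, and Psmb10 lies next to the line of no change, on a side that depends on the scaling.

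Nlrc5, the coactivator of class I genes, had 63.3 and 43.4 CPM in dermal libraries, against 54.4 and 45.3 CPM in inguinal libraries. The groups overlapped, and the spread within the dermal pair exceeded the difference between depots (log2 fold change 0.08, SE 0.21, 95% interval -0.43 to 0.58, adjusted p = 0.833). The estimate lay at -0.19 without dermal replicate 1. Nlrc5 lies on chromosome 8, at 94434356 to 94527272.

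Per kilobase of the longest coding transcript, which makes genes comparable to each other, the levels spanned a wide range. B2m led with 5027 ± 564 CPM per kilobase in dermal and 5707 ± 667 in inguinal libraries (SD, n = 2 each). H2-K1 followed with 869 ± 68.3 in dermal and 779 ± 3.64 in inguinal libraries, then H2-D1 with 702 ± 7.23 in dermal and 630.0 ± 29.3 in inguinal libraries, and Tapbp with 84.9 ± 3.82 in dermal and 64.9 ± 4.18 in inguinal libraries. At these lengths, each of these 4 genes was separated from the next in both depots by more than the spread of its libraries. Psmb8 had 17.0 ± 2.21 CPM per kilobase in dermal and 26.9 ± 3.46 in inguinal libraries, beside 17.9 ± 0.0210 in dermal and 17.9 ± 0.445 in inguinal libraries for Psmb10. At these lengths Psmb8 therefore overlapped Psmb10 in dermal libraries and lay above it in inguinal libraries. Tap2 (13.8 in dermal and 17.4 in inguinal libraries) and Tap1 (12.7 in dermal and 16.5 in inguinal libraries) overlapped each other in both depots, and Tap2 overlapped Psmb10 in inguinal libraries. Psmb9 (6.40 in dermal and 9.93 in inguinal libraries) and Nlrc5 (7.03 in dermal and 6.58 in inguinal libraries) were lowest, and they overlapped in dermal libraries only. Lengths are those of GENCODE M21, which may differ from the depositors' gene models. The order of genes with close levels depends on the length used. Over all annotated exons (2938 bases for H2-K1, 2579 for H2-D1), H2-D1 would lie above H2-K1 in both depots. With 3381 bases for Psmb8 and 1705 for Psmb10, these 2 genes would overlap in inguinal libraries. Psmb9 (3660 bases) would lie below Nlrc5 (8493 bases) in both depots.

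In the assembled particle Psmb8 takes the place of the constitutive subunit Psmb5, Psmb9 that of Psmb6 and Psmb10 that of Psmb7, and a ratio of reads within a library needs no scaling between libraries. The summed reads of the inducible subunits were 0.289 and 0.299 of those of the constitutive ones in dermal libraries, against 0.331 and 0.400 in inguinal libraries. Both dermal ratios lay below both inguinal ones, with a log2 difference of -0.31, and an exact permutation test over the 4 libraries, two-sided, gave p = 0.333, the smallest value it can give with 2 against 2. Psmb8 over Psmb5 stood at 1.15 and 1.06 in dermal libraries, against 1.70 and 2.08 in inguinal libraries. Psmb9 over Psmb6 stood at 0.0828 and 0.103 in dermal libraries, against 0.141 and 0.139 in inguinal libraries. Psmb10 over Psmb7 overlapped, at 0.256 and 0.297 in dermal libraries, against 0.188 and 0.279 in inguinal libraries. The constitutive partners gave adjusted p of 0.779 for Psmb5 (log2 fold change 0.10), 0.937 for Psmb6 (-0.02) and 0.435 for Psmb7 (-0.27), and Psmb6 turned to 0.0602 without the scaling factor.

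**Figure D4:**
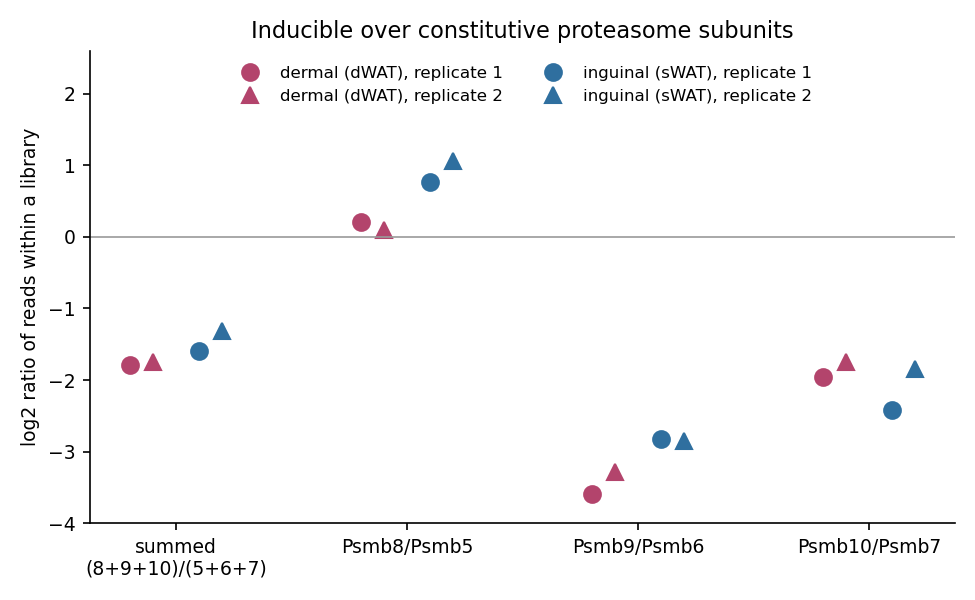
Log2 ratio of reads of inducible to constitutive proteasome subunits in each library, summed and by pair, with dermal libraries in red left of inguinal libraries in blue (circles replicate 1, triangles replicate 2). Dermal points lie below inguinal points for the sum, for Psmb8/Psmb5 and for Psmb9/Psmb6, and the Psmb10/Psmb7 points overlap.

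Few other proteasome genes passed the test, beside 16.4% of all genes tested that were called. The constitutive core gave 7.14%, and whether the lists below differ from the share of all genes was not tested. Of 14 subunits of the constitutive core, 1 was lower in dermal libraries and none higher: Psma4, a subunit of the outer ring, had 119 and 109.6 CPM in dermal libraries, against 204 and 157 CPM in the inguinal pair (log2 fold change -0.65, SE 0.16, limma adjusted p = 0.0422). Leaving out either dermal library ended this call (adjusted p = 0.128 and 0.207), as did leaving out inguinal replicate 1 (0.0606), the filter (0.0615) or the intensity trend (0.0883), and quantile normalization (0.0694). Its list had a median log2 fold change of -0.15 with 11 of 14 estimates negative. The 21 subunits of the regulatory particle gave 0 calls by limma, edgeR and DESeq2 and 1 gene at an unadjusted p below 0.05, with a median of -0.12. Among 9 genes of proteasome activation and assembly 0 passed by any of the 3 tools and 1 had an unadjusted p below 0.05. In that list Psme1, a subunit of the interferon-inducible PA28 activator, had 94.8 and 86.0 CPM in dermal libraries, against 123 and 127 CPM in inguinal libraries, with groups that did not overlap (log2 fold change -0.47, SE 0.12, limma adjusted p = 0.0510). Its partner Psme2 had 49.0 and 44.9 CPM in dermal libraries, against 65.5 and 50.8 CPM in the inguinal pair (adjusted p = 0.265).

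Among 13 tested class I relatives outside the set, 2 were lower in dermal libraries and 0 higher, which is 15.4% called beside 16.4% of all genes tested. H2-Q4, which encodes a nonclassical (class Ib) heavy chain, had 65.0 and 70.7 CPM in dermal libraries, against 113.6 and 118 CPM in inguinal libraries. This was 1.70-fold lower (log2 fold change -0.77, SE 0.12, limma adjusted p = 0.0115), a call that ended without either dermal library (adjusted p = 0.0917 and 0.0526). H2-Q6, a close relative, had 34 and 38 reads in dermal libraries, against 72 and 88 reads in inguinal libraries. It was 2.01-fold lower (limma adjusted p = 0.0439) and lost its call with DESeq2 (adjusted p = 0.0693) and without dermal replicate 1, dermal replicate 2 or inguinal replicate 2 (0.111 to 0.185), and also without the filter (0.0846) and without the scaling factor (0.0769). The H2-Q genes are near-identical to each other in parts, so reads may be split among them. Fcgrt, the neonatal Fc receptor, and Cd1d1, which presents lipids, were the most abundant on this list by mean, with adjusted p of 0.389 and 0.268. The 11 genes of peptide trimming and loading outside the set gave 0 calls by limma, edgeR and DESeq2, 2 at an unadjusted p below 0.05, and a median of 0.01 on the log2 scale. The chaperones Calr and Canx, its most abundant members, had adjusted p of 0.895 and 0.919.

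The upstream factors included a large difference. Irf1, the interferon-responsive transcription factor, had 145 and 143 CPM in dermal libraries, against 773 and 775 CPM in inguinal libraries, which was 5.36-fold lower (log2 fold change -2.42, SE 0.12, limma adjusted p = 0.000664). Of 17 factors listed for class I and class II promoters, 4 (23.5%, beside 16.4% of all genes) were lower in dermal libraries and 0 higher, the others being Rela (-0.65), the p65 subunit of NF-kappaB, Nfyb (-0.70), part of the factor that binds the Y box, and Atf1 (-0.61), a factor of the CREB family. The calls of Rela (adjusted p = 0.234 and 0.0633), Nfyb (0.152 and 0.185) and Atf1 (0.261 and 0.137) were lost without dermal replicate 1 and without dermal replicate 2, and that of Irf1 was kept with each of the 4 libraries left out (adjusted p up to 0.00123). DESeq2 ended the calls of Nfyb (0.0547) and Atf1 (0.0636), the missing scaling factor those of Rela (0.0681), Nfyb (0.0616) and Atf1 (0.0904), and the missing intensity trend those of Rela (0.0702) and Atf1 (0.0653). Rela was also lost after quantile normalization (0.0527), and Atf1 without the filter (0.0569) or inguinal replicate 2 (0.0717). The list gave 2 calls with DESeq2 or without the trend, and 1 without the scaling factor or without either dermal library. Rfx5, which binds the X box, had 15.9 and 16.0 CPM in dermal libraries, against 18.3 and 21.5 CPM in the inguinal pair (adjusted p = 0.259). Ciita, the class II counterpart of Nlrc5, had 13 and 19 reads in dermal libraries, against 5 and 8 reads in inguinal libraries (adjusted p = 0.154).

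On a list of other genes that interferon gamma is known to raise, log2 fold changes were larger in size than for most class I genes. Of 15 tested targets on that list, 14 were lower in dermal libraries and 0 higher, beside 8.8% of all genes tested called as lower. Their median lay at -1.86, beside -0.09 for the class I set. The list includes genes already known from these libraries to differ. Its count, direction and larger fold changes are therefore no independent evidence. Cxcl9, a T cell chemokine, had 14.5 and 16.3 CPM in dermal libraries, against 305 and 311 CPM in the inguinal pair (log2 fold change -4.28, SE 0.13, limma adjusted p = 0.000218). Iigp1, an interferon-inducible GTPase, had 69.5 and 64.8 CPM in dermal libraries, against 881 and 911 CPM in the inguinal pair (log2 fold change -3.73). Cxcl10, a chemokine for the same receptor as Cxcl9, had 68.9 and 64.1 CPM in dermal libraries, against 425 and 347 CPM in the inguinal pair (log2 fold change -2.52). None of these 3 genes overlapped between depots. Whether the class I genes differ from this list beyond their spread was not tested.

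A list of interferon receptors, kinases, ligands and feedback inhibitors had 3 genes lower and 1 higher in dermal libraries of 10 tested. That is 40% called, beside 16.4% of all genes tested, and none of the 4 encodes a receptor. Jak2 and Jak1, the kinases at the interferon gamma receptor, were lower in dermal libraries (log2 fold change -1.37 and -0.86, limma adjusted p = 0.00346 and 0.00974), and leaving out dermal replicate 2 ended the Jak1 call (adjusted p = 0.0824). Socs3, a feedback inhibitor, was lower too, with 83.3 and 121 CPM in dermal libraries, against 442 and 482 CPM in inguinal libraries. Ifnb1, which encodes interferon beta, was the gene that was higher, with 92 and 100 reads in dermal libraries, against 3 and 0 reads in inguinal libraries. This corresponds to a 65.9-fold ratio after scaling, with an exact 95% interval of 22.2 to 322 for counting error only (limma adjusted p = 0.00182). Ifng itself had 0 and 0 reads in dermal libraries, against 1 and 2 reads in inguinal libraries, and was not tested. The abundant receptor gene Ifngr1 had 228 and 231 CPM in dermal libraries, against 215 and 171 CPM in the inguinal pair (adjusted p = 0.290).

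Class II presentation, shown only as a contrast, had 5 of 11 tested genes higher in dermal libraries and 0 lower (45.5% called, beside 16.4% of all genes). Ctss, a protease that trims the invariant chain, had 96.2 and 80.0 CPM in dermal libraries, against 30.5 and 28.9 CPM in the inguinal pair (log2 fold change 1.55). Cd86, a costimulatory ligand, had 248 and 276 reads in dermal libraries, against 105 and 67 reads in the inguinal pair (log2 fold change 1.62). Neither gene overlapped between depots, and both kept their call in every alternative fitted. The calls of the class II chains rested on fewer settings: H2-Ab1 (0.81) was lost without either dermal library (adjusted p = 0.0820 and 0.168) and without the intensity trend (0.0605), and H2-Eb1 (0.94) without dermal replicate 2 (0.132). The call of the invariant chain gene Cd74 (0.66) ended without dermal replicate 1 (0.148), dermal replicate 2 (0.170), inguinal replicate 1 (0.0538), the filter (0.0576) or the intensity trend (0.0835, limma). The lowest estimate on the list was that of H2-Ob (-1.20, limma adjusted p = 0.0605, edgeR 0.0454), a chain of a class II accessory molecule, and the list gave between 2 calls (without dermal replicate 2) and 6 (without inguinal replicate 2) when single libraries were left out.

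**Figure D5:**
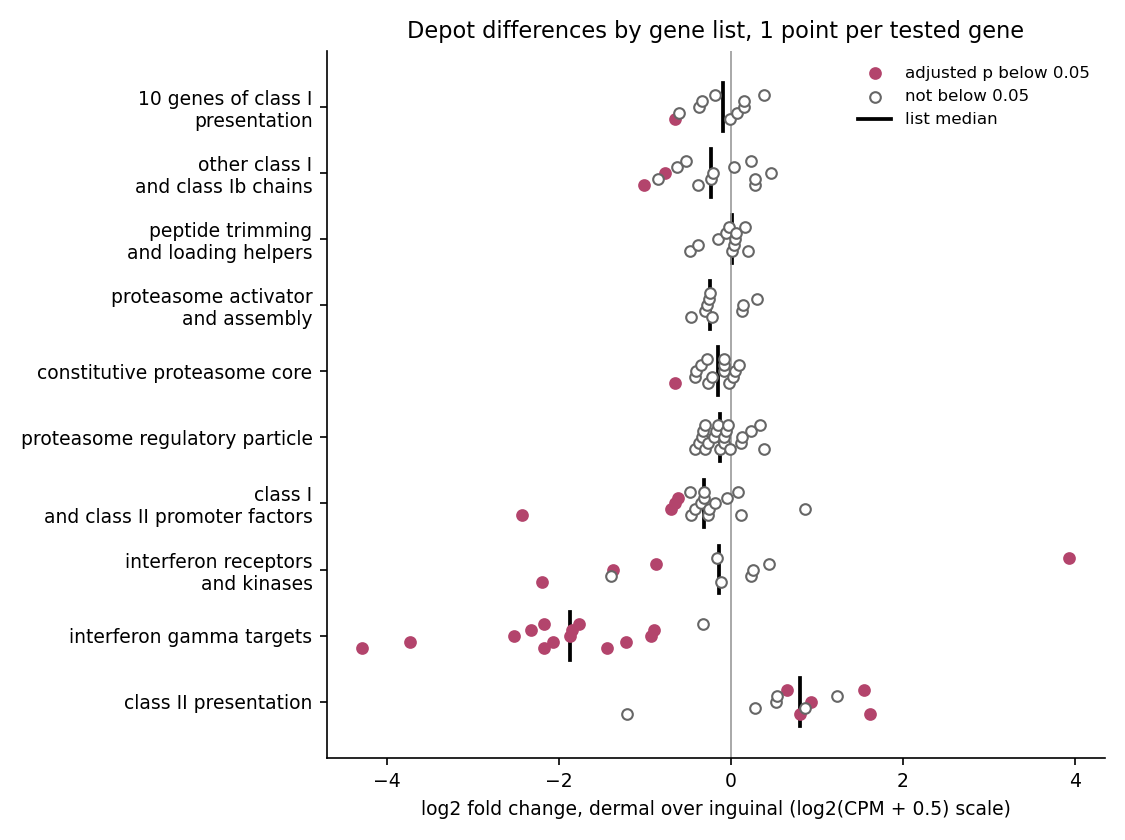
Log2 fold change (dermal over inguinal, log2(CPM + 0.5) scale) of each tested gene, by list, with filled points for an adjusted p below 0.05 and black bars for list medians. The class I set is centred at -0.09, the interferon gamma targets at -1.86 and class II presentation at 0.81. The lists were chosen with earlier results of these data known.

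Class I genes are expressed by most cell types, and markers of other cells differed between the depots. Beside the counts below, 7.56% of all genes tested were called as higher and 8.8% as lower in dermal libraries. Of 11 tested macrophage markers, 10 were higher in dermal libraries, and the list summed to 1715 and 1616 CPM in dermal libraries, against 588 and 555 CPM in inguinal libraries. All 12 endothelial markers were lower in dermal libraries, with sums of 551 and 576 CPM in dermal libraries, against 1962 and 2908 CPM in inguinal libraries. Of 8 pericyte and smooth muscle markers 7 were tested, of which 6 were lower and 1 higher in dermal libraries, with sums of 279 and 265 CPM in dermal libraries, against 315 and 361 CPM in inguinal libraries. Keratinocyte and hair follicle markers (6 of 7 tested higher in dermal libraries) summed to 130.3 and 57.2 CPM in dermal libraries, against 24.9 and 17.3 CPM in inguinal libraries. Mast cell markers (3 of 5 higher and 1 lower) summed to 67.3 and 199.9 CPM in dermal libraries, against 40.4 and 45.7 CPM in inguinal libraries. Fibroblast and progenitor markers gave 0 calls of 9 by limma (4 at an unadjusted p below 0.05), 0 by edgeR and 1 by DESeq2. They summed to 4820 and 10496 CPM in dermal libraries, against 3346 and 5599 CPM in inguinal libraries. The part of these cells in the differences of Psmb8, H2-Q4, Irf1, the interferon gamma targets and the class II genes was not tested.

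Lymphocytes, which include the CD8 T cells that read class I molecules, left few reads. T and NK cell markers summed to 3.64 and 4.08 CPM in dermal libraries, against 2.79 and 5.33 CPM in inguinal libraries. Most of the dermal sum was Cd4, at 2.28 and 3.23 CPM in dermal libraries, against 0.591 and 0.873 CPM in inguinal libraries. Cd4 was the only marker on this list that was tested. It was called as higher in dermal libraries by limma (log2 fold change 1.39) and edgeR, but not by DESeq2. Which cells the Cd4 reads came from was not tested. Cd8a had 2 and 0 reads in dermal libraries, against 1 and 2 reads in inguinal libraries, and Cd3e had 0 and 1 reads in dermal libraries, against 2 and 7 reads in inguinal libraries. B cell markers summed to 0.182 and 0.664 CPM in dermal libraries, against 1.94 and 4.27 CPM in inguinal libraries. Dendritic cell markers summed to 14.8 and 13.1 CPM in dermal libraries, against 18.2 and 21.6 CPM in inguinal libraries. Of 3 tested, 1 was lower and 0 higher in dermal libraries by limma, too few to compare with the 8.8% of all genes called as lower. The estimates pointed both ways, with 2 positive and 1 negative, and edgeR and DESeq2 called 2 each.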

How the data were processed

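The 4 libraries were grouped by their titles. The deposited signal values are normalized CPM per gene; the submitters' processing notes name mm10, featureCounts of Subread 1.4.6, TopHat2 2.0.12, edgeR and Picard 1.127 without roles. Every value was a whole multiple of its library's step to within 0.001, so reads were recovered, with 1 read worth 0.0844 to 0.0969 CPM and totals of 10794480 and 10127125 (dermal) and 12730013 and 10165094 (inguinal). Genes with at least 1 CPM in at least 2 libraries were tested with limma 3.58.1 under R 4.3.3, with log2(CPM + 0.5) as input and a trended variance; fold changes of low genes are understated. The limma step was tested on simulated counts. edgeR 4.0.16 and DESeq2 1.42.0 on recovered reads were among the alternatives. Ratios were tested with scipy 1.17.1. Members and lists were chosen with earlier results of these data known; all members, every caller of a list with up to 6 calls, otherwise the 3 of smallest adjusted p, its 2 most abundant genes and a fixed few are named by rule, not all printed. Cd4, Cd3e, Cd8a, Ifng, Ifngr1, H2-Ob, Adipoq and Plin1 were named after their values were seen. Some genes that the rule names are not reported here. Whether replicates are separate animals is not stated, so p-values measure only how these libraries vary, which could be technical variation. Precision is limited by n = 2 per depot. Positions are GENCODE M21 (GRCm38); promoters are RefSeq (GRCm38.p6).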

Additional observations from a re-analysis of the deposited data

How the results depend on the processing

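With 2 libraries per depot the call of 1 of the 10 genes depended on the settings. The count was 0 without a filter, without the intensity trend and without the scaling factor, and 0 to 1 with single libraries left out; after quantile normalization it was 1, but Tapbp in place of Psmb8. The pseudocounts, a filter of 5 CPM, edgeR and DESeq2 left it at 1. The median of the 10 genes was -0.0111 without the scaling factor and -0.24 to -0.0212 with libraries left out. All genes called numbered 1023 to 2636 with libraries left out, lowest without dermal replicate 1 (1023) and dermal replicate 2 (1037). Same-numbered libraries deviated together over 12797 genes (r = 0.464), and less so over the 10 genes (r = 0.128). Only 2 pairs exist and the labels give no shared origin. With a replicate block in limma 4726 genes (36.9%) and 4 of the 10 (Psmb8, Psmb9, Tap1 and Tapbp) were called. The block also called Psme1 (limma adjusted p = 0.00522) and 7 of 9 fibroblast markers. The log2 difference of the inducible to constitutive ratio was -0.17 to -0.45 with libraries left out, and -0.20 and -0.42 within replicate numbers 1 and 2 (pairing). Psmb10 turned to 0.0021 with quantile normalization and 0.0773 without the scaling factor, and Psmb6 to 0.0712 and 0.0602. Leaving out libraries gave -0.0289 to 0.0207 for Psmb10, -0.19 to 0.35 for Nlrc5, -0.17 to 0.37 for Psmb5, -0.19 to 0.15 for Psmb6 and -0.58 to 0.0369 for Psmb7. The causes were not tested. Over 48 named genes refitted, 25 kept direction and side of the threshold in every setting.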
